A study of Mus musculus with 2 samples.

Results

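The cells described here were mouse lymph node T cells that held several mRNA molecules of genes switched on by T cell receptor signals. They were selected on raw counts of unique molecular identifiers (UMIs), each of which marks 1 captured mRNA molecule. A cell had to hold at least 500 UMIs, at least 200 genes, at most 10% mitochondrial UMIs, at least 2 UMIs over Cd3d, Cd3e and Cd3g, and at least 3 UMIs over Nr4a1, Nr4a3, Tnfrsf9 and Egr2. It also had to be free of UMIs of Foxp3, Maf, Trdc, Cd79a and Ms4a1, which mark regulatory, Maf-expressing and gamma delta T cells and B cells. The rule found 242 of the 26523 deposited barcodes, of which 150 of 12769 lay in the wild-type (WT) library and 92 of 13754 in the knockout (CKO) library. They are called stimulated T cells below. T cells that met every other condition are called eligible, and eligible T cells with 0 UMIs of the 4 genes are called resting.

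Immune cells were taken from lymph nodes of C57BL/6 mice of 2 genotypes, wild-type and conditional knockout for Rpa1, and profiled with 10x Genomics 3-prime single-cell RNA sequencing. The product of Rpa1 is the main DNA-binding subunit of the RPA complex, which protects single DNA strands during replication and repair. The labels name no Cre driver, age, number of animals or treatment of the mice. Each genotype had 1 library, so no difference between genotypes could be tested against the spread between animals. A level is the sum of a gene's UMIs over a class of cells, scaled to 1000000 UMIs of that class (CPM). A ratio of levels was called higher or lower when it was at least 1.5-fold and its exact 95% interval left out 1. Square brackets give that interval, which is the exact Poisson interval for a level, the exact conditional binomial interval for a ratio and the exact binomial (Clopper-Pearson) interval for a share. All of them cover counting error only.

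Engagement of the T cell receptor activates calcium and calcineurin signalling, the MAP kinases and NF-kB. Nr4a1 and Nr4a3, which encode orphan nuclear receptors, and Egr2 and Egr3, which encode zinc finger factors, are among the genes transcribed soonest, and Nr4a1 is widely used as a reporter of receptor signalling. Tnfrsf9 encodes 4-1BB (CD137), a co-stimulatory receptor of the TNF receptor family that appears on activated T cells. In lymph nodes T cells meet antigen and self ligands on dendritic cells, and cells that respond keep away from the exit by losing S1pr1, the receptor that guides them into lymph.

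The promoters of 3 of the selecting genes are shown because the rule rests on their transcripts, followed by those of Nfkbia and Isg15, which stand for the NF-kB and interferon genes described below. Sequences and starts are from RefSeq (GRCm38.p6), read 5′ to 3′ on the gene's strand. Each holds up to 250 bases before the transcription start, without annotated exons. The Nr4a1 promoter lies at chr15:101266596-101266845 (plus strand), the first 98 bases of the Nr4a3 window, which lie outside exons, at chr4:48045055-48045152 (plus), the Egr2 promoter at chr10:67537619-67537868 (plus), the Nfkbia promoter at chr12:55492648-55492897 (minus) and the Isg15 promoter at chr4:156200819-156201068 (minus). Capitals mark TGACG or its complement CGTCA, the core of the cyclic AMP response element, in the Nr4a and Egr genes.
Nr4a1: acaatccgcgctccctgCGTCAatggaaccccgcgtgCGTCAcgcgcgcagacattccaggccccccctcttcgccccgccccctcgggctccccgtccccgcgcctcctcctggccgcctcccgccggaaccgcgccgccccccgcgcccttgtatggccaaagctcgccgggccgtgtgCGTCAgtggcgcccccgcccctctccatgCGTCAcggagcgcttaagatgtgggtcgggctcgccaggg
Nr4a3: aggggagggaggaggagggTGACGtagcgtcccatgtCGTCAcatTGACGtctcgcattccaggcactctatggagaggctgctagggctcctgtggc
Egr2: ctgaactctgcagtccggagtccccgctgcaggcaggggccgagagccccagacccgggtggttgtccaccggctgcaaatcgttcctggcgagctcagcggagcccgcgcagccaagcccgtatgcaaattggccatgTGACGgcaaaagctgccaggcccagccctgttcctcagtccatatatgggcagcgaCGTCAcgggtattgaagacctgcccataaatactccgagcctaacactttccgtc
In Nfkbia the capitals mark a match to the NF-kB motif, searched as GGG and TTTCC with any 2 bases between them and found here on the opposite strand. In Isg15 they mark overlapping matches to the interferon response motif, searched as GAAA and GAAA with any 2 bases between them.
Nfkbia: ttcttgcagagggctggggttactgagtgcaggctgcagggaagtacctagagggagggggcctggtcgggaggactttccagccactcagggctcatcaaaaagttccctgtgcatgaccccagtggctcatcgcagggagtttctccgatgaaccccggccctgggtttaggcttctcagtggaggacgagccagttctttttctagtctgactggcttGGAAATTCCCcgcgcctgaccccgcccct
Isg15: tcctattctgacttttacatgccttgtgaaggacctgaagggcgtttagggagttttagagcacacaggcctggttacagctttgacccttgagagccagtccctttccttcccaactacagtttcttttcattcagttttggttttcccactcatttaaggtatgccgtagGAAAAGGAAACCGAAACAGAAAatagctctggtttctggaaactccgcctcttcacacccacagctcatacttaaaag

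Both strands were searched and overlapping matches were counted. Of 32851 promoters of 250 bases in the RefSeq table, 17.8% held TGACG at least once, and 0.137% held 4 or more matches, as the Nr4a1 window did. The Nr4a3 window also held 4 matches, of which 3 lie in the stretch printed, and the Egr2 window held 2. The table lists 5 starts for Egr2, and the start whose window holds most matches was printed, so its count is the highest of the 5; the other genes have 1 start each. The NF-kB motif occurred in 1.41% of promoters and the interferon response motif in 2.98%, with 3 or more matches in 0.0122%. These matches describe the letters of the windows and were not tied to binding in these cells.

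The WT library held 12769 barcodes and the CKO library 13754, and 12463 and 13316 passed the filters on UMIs, genes and mitochondrial share. T cells with at least 2 CD3 UMIs numbered 9444 in WT and 5054 in CKO, of which 7219 and 2528 were eligible. The libraries shared 56 barcodes, none of them among the stimulated cells (0 shared barcodes). Stimulated cells held a median of 8126.5 UMIs in WT and 6270.5 in CKO, against 6375 and 5722.5 in eligible T cells, and mitochondrial genes took a median of 2.55% and 2.61% of their UMIs. Their UMIs summed to 1397171 in WT and 654431 in CKO.

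Rpa1, on chromosome 11, was lower in CKO than in WT stimulated cells. WT stimulated cells held 43 Rpa1 UMIs in 34 cells (30.8 CPM) and CKO stimulated cells 5 UMIs in 4 cells (7.64 CPM), a ratio of 0.248 [0.0767, 0.625]. Among stimulated cells with Cd4 and no Cd8b1 UMI, Rpa1 was not called lower. In resting T cells the levels were 40.6 and 23.9 CPM, a ratio of 0.589 [0.518, 0.667]. The library labelled CKO thus still held Rpa1 transcripts in both classes. A 3-prime tag does not show whether a transcript lacks the deleted part, and the labels do not say which part of the gene was deleted. The other subunits of the complex were not called in stimulated cells: Rpa2 stood at 11.5 CPM in WT and 13.8 in CKO, and Rpa3 at 30.8 and 45.8.

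Stimulated cells made up a larger share of eligible T cells in the CKO library. They were 150 of 7219 in WT (2.08% [1.76, 2.43]) and 92 of 2528 in CKO (3.64% [2.94, 4.44]), 1.56 percentage points apart with intervals that did not overlap. Median depth was higher in WT than in CKO, so every cell was also thinned to 1 fixed number of UMIs and the whole rule applied again. At 4000 UMIs the shares were 1.04% [0.82, 1.31] in WT and 2.22% [1.67, 2.89] in CKO, with 8 and 11 stimulated cells too shallow to enter. At 2000 UMIs they were 0.462% [0.32, 0.646] and 1.09% [0.739, 1.54]. Thinning also removes UMIs of the genes that exclude a cell, so cells left out at full depth could enter. Eligible T cells at 2000 UMIs numbered 7353 in WT and 2856 in CKO, although 35 and 16 eligible cells were too shallow. The thinned shares thus describe a different set of cells, which grew more in CKO. The part of the entering cells in these shares was not tested. Without Nr4a1 in the sum the shares were 1.25% [1, 1.53] and 1.86% [1.37, 2.46], whose intervals overlapped, and without Tnfrsf9 1.45% [1.19, 1.76] and 2.53% [1.96, 3.22].

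The threshold of 3 UMIs cut a distribution with no gap in it. Just outside, 185 WT and 85 CKO cells held 2 UMIs of the 4 genes (2.56% and 3.36% of eligible T cells). Just inside, 57 WT and 32 CKO cells held 3 (0.79% and 1.27%). At 6 or more UMIs were 50 WT cells, 0.693% [0.514, 0.912], and 40 CKO cells, 1.58% [1.13, 2.15]. The highest cell held 21 UMIs in WT and 28 in CKO, and the median stimulated cell held 4 in both.

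**Figure D1:**
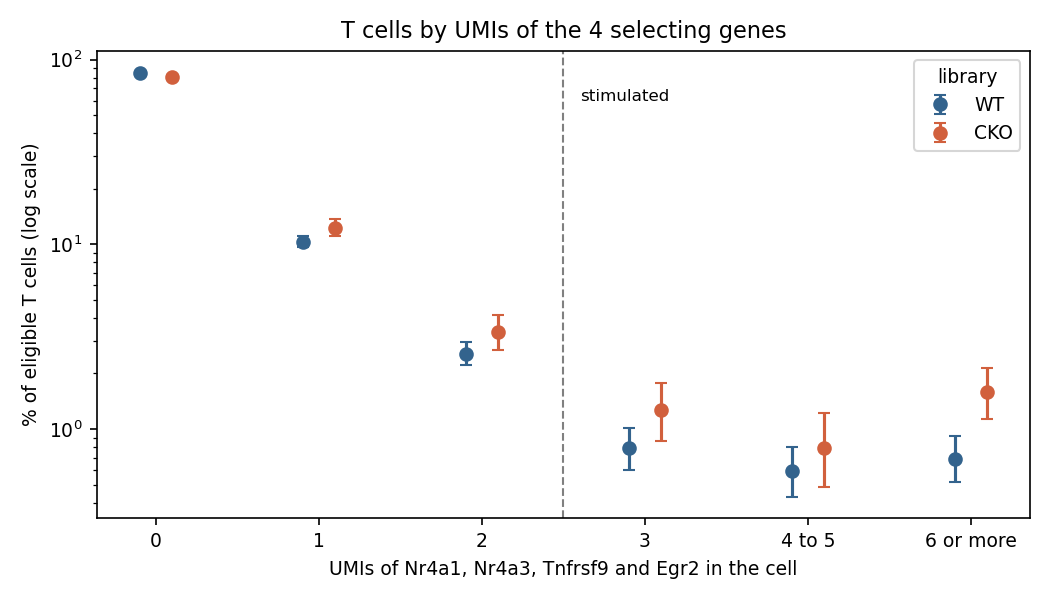
Share of eligible T cells (%, log scale) by the number of UMIs of Nr4a1, Nr4a3, Tnfrsf9 and Egr2 in the cell, for the WT (blue) and CKO (red) libraries, with exact binomial 95% intervals for counting error. From 1 UMI upwards the CKO share lies above the WT share, and cells right of the dashed line were taken as stimulated; the intervals at 6 or more UMIs, 0.514 to 0.912% and 1.13 to 2.15%, do not overlap.

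The working name, Nr4a and Tnfrsf9 high, held for a part of the cells only. UMIs of Nr4a1 were found in 67.3% of WT and 79.3% of CKO stimulated cells, Nr4a3 in 40% and 44.6%, Tnfrsf9 in 44.7% and 44.6%, and Egr2 in 31.3% and 29.3%. Cells with Tnfrsf9 and also Nr4a1 or Nr4a3 numbered 42 of 150 in WT and 26 of 92 in CKO. Cells with Nr4a1 or Nr4a3 and no Tnfrsf9 numbered 76 and 51, and cells with Tnfrsf9 and neither Nr4a gene 25 and 15. A further 7 WT cells held Egr2 alone. A sum of 3 over sparse counts fixes much of this pattern, so it is given as a description. Summed levels in WT and CKO were 233 and 477 CPM for Nr4a1, 102 and 153 for Nr4a3, 209 and 238 for Tnfrsf9, and 61.6 and 77.9 for Egr2.

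The other marker genes given for these cells, Itm2a and Hivep3, were not part of the rule. Itm2a, which encodes an activation-associated membrane protein and lies on the X chromosome, stood at 215 CPM in WT and 235 in CKO stimulated cells, against 50.2 and 60.2 in resting cells. Hivep3, which encodes a large zinc finger factor, stood at 211 and 151 CPM against 14.4 and 15.6. With every cell thinned to 2000 UMIs, Itm2a was detected in 26.7% of WT and 25% of CKO stimulated cells, against 9.07% and 11.3% of resting T cells and 0.661% and 0.534% of B cells. Hivep3 was detected in 20% and 13% of stimulated cells, 2.7% and 2.57% of resting T cells and 4.75% and 4.3% of B cells. Tnfrsf9 was detected in 22.7% and 33.7% of thinned stimulated cells and in 0 of 2570 thinned WT B cells and 0.123% of CKO B cells. By a limit of 3 counts, 0 of 2570 allows up to 0.117% of cells with a UMI at that depth, and the exact interval up to 0.143%. Unthinned, B cells (at least 2 UMIs over Cd79a and Ms4a1, 0 of CD3 genes) held a Tnfrsf9 UMI in 0.0778% (WT) and 0.26% (CKO), at median depths of 4024 and 3913 UMIs.

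Of the CD3 cells with 3 or more UMIs of the 4 genes, 284 in WT and 259 in CKO, the rule left out more than it kept in CKO. Cells with Cd79a, which encodes a chain of the B cell receptor, were 91 of 284 in WT and 109 of 259 in CKO. Cells with Foxp3 were 49 (17.3%) and 44 (17%), and cells with Maf 60 (21.1%) and 37 (14.3%). Trdc, the delta chain constant gene, was in 4 WT (1.41% [0.385, 3.57]) and 44 CKO cells (17% [12.6, 22.1]). A cell could be left out for several of these genes. With cells kept whatever their Cd79a and Ms4a1, the stimulated shares were 2.43% in WT and 4.31% in CKO.

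Markers of other cells were measured in the cells kept. The 13 B cell markers summed to 720 CPM in WT and 770 in CKO stimulated cells, 398 and 456 in resting T cells, and 47900 and 40500 in B cells. Stimulated cells with at least 10 of these UMIs, 7 in WT and 4 in CKO, held 73.7% and 69% of them. The 10 dendritic cell and monocyte markers summed to 595 and 400 CPM against 80.9 and 79 in resting cells. In WT, 7 stimulated cells with at least 10 such UMIs held 88.8% of them, and in CKO 5 cells held 84.7%. Of these markers 3 were at 0 in each library, among them Xcr1. The 9 markers of NK and gamma delta cells summed to 243 and 290 CPM, with 98.2% and 92.6% of the UMIs in 8 and 5 cells. Most of these UMIs were of Tyrobp (177 in WT and 109 in CKO) and Fcer1g (124 and 58). Ncr1 and Klrb1c each came from 1 WT cell and 3 CKO cells, and Tcrg-C1 had 0 UMIs in WT and 1 in CKO. The 14 regulatory T cell genes other than Foxp3 summed to 605 and 672 CPM, against 2850 and 2540 in Foxp3 cells and 255 and 289 in resting cells. Stimulated cells with at least 10 UMIs of this list, 28 in WT and 10 in CKO, held 59.6% and 49.5% of them. Ctla4 and Izumo1r, compared between genotypes below, belong to this list. Some counts and ratios between genotypes are also given below without the 7 and 5 myeloid-rich cells; the part of the other markers was not tested.

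In both libraries the stimulated cells carried a wide program of receptor-induced genes beside the selecting ones. The comparison with resting cells is the one the rule drew, so its values are descriptive. Of 8707 genes at a mean of 5 CPM or more in WT, 16.4% were higher and 6.17% lower in stimulated cells, and of 8754 in CKO 13.7% and 4.15%, with a median log2 ratio over all genes of 0.09 and 0.12. Among 16 measured nuclear factors induced by the receptor, 13 were higher and 1 lower in WT (median log2 ratio 2.10), and in CKO 12 of 15 were higher (2.04). Without myeloid-rich cells the medians were 2.11 and 2.16.

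Egr3, the partner of Egr2 in restraining activation, went from 4.72 CPM in resting to 147 in stimulated WT cells and from 4.54 to 290 in CKO. In B cells it stood at 86.3 and 101 CPM, so it is not a T cell gene only. Egr1 stood at 31.2 and 31.7 CPM in resting cells and 301 and 405 in stimulated cells. Irf4, the factor that scales with the strength of receptor signals, went from 2.14 to 48.7 CPM in WT and from 1.24 to 35.1 in CKO. Myc, the driver of growth in activated T cells, went from 52.6 to 176 CPM and from 39.5 to 113. Nr4a2, the remaining member of the Nr4a family, was found in 19 WT and 7 CKO cells, at 28.6 and 39.7 CPM.

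NF-kB genes and survival genes were higher in stimulated cells almost throughout. Of 16 measured members 15 were higher in each library, with median log2 ratios of 1.68 in WT and 1.91 in CKO. Nfkbia, which encodes the inhibitor IkB-alpha and is itself an NF-kB target, went from 158 to 511 CPM in WT and from 159 to 715 in CKO. Nfkbid, which encodes the nuclear inhibitor IkB-NS, went from 18.2 to 136 and from 17.8 to 199 CPM. Rel, the NF-kB subunit of activated T cells, stood 4.6 and 4.48 times as high in stimulated as in resting cells. The survival genes Bcl2a1b and Bcl2a1d, near-identical copies whose reads may be shared, were 11.5 and 14.8 times as high in WT and 8.46 and 13 times in CKO. Gadd45b, a stress-response gene of the same signalling, was 21.4 and 28.4 times as high.

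Co-stimulatory and inhibitory receptors were higher together. In the co-stimulatory list 13 of 18 members were higher in WT and 12 of 17 in CKO, and in the inhibitory list 10 of 16 and 7 of 16. Cd69, which holds activated cells in the node by removing S1PR1 from the surface, stood at 275 and 262 CPM in resting cells and 540 and 588 in stimulated cells. Tnfrsf4, which encodes OX40, stood at 84.5 and 96.3 CPM in stimulated cells, 12.5 and 5.8 times its resting level. Lag3, an inhibitory receptor for MHC class II, was found in 13 WT and 5 CKO stimulated cells, 23.1 and 21.6 times its resting level. Pdcd1, which encodes PD-1, was found in 16 and 8 cells and stood 14.9 and 7.57 times as high.

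Among cytokine genes Ltb, which encodes lymphotoxin beta, was found in 97.3% of WT and 90.2% of CKO stimulated cells, at 750 and 810 CPM, beside 828 and 796 CPM in resting cells. Tgfb1 stood at 121 and 144 CPM, 2.01 and 2.11 times its resting level. Xcl1, the chemokine that attracts cross-presenting dendritic cells, stood at 387 CPM in WT and 318 in CKO, from 24 and 12 cells. Tnf was found in 18 WT and 19 CKO cells, at 20 and 39.7 CPM. Il2 was found as 9 UMIs in 9 WT cells and 0 UMIs in CKO, where the floor of 3 UMIs corresponds to 4.58 CPM. Il3, Il4, Il10, Il13, Il17a and Il21 had 0 UMIs in stimulated cells of either library, and Ifng came from 4 WT cells and 1 CKO cell.

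Growth genes stood higher and genes of quiescence and exit lower. Of 18 growth, nucleolar and translation genes all 18 were higher in both libraries, with median log2 ratios of 1.22 and 1.19. Without myeloid-rich cells 17 of the 18 were higher. The list also holds Mxd1, an antagonist of MYC. Ncl, which encodes the nucleolar protein nucleolin, went from 732 to 2190 CPM in WT and from 733 to 1910 in CKO, and Odc1, the first enzyme of polyamine synthesis, was 4.41 and 5.22 times as high. The S phase list had 15 of 20 members higher in WT and 5 of 20 in CKO, while 20 WT and 14 CKO cells held 61.9% and 60.5% of its UMIs. Of 19 naive and homing genes 10 were lower in WT and 11 in CKO, and 0 higher. S1pr1 stood at 0.419 and 0.404 times its resting level, and Klf2, the factor that maintains S1pr1, at 0.449 and 0.596. The genes with the lowest ratios in both libraries were Tdrp, Rflnb, Arl4c, S1pr1, Pik3ip1, S1pr4, Card6, AI467606, Cd8b1 and Txnip, and those with the highest Apol7c, Lyz2, Egr3, Xcl1, Gadd45b, Marcksl1, Ccl4, Marcks, Irf8 and Fabp5. Apol7c and Lyz2 came from 3 WT and 2 CKO cells each. Ccl4 came from 11 and 3 cells, with 52% and 96.5% of its UMIs in 1 cell. Marcks came from 7 and 9 cells, with 45.9% and 39.1% in 1 cell. In CKO 1 cell held 55.8% of the Fabp5 UMIs and 1 cell 46.3% of the Irf8 UMIs.

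These levels also differed among cells by how many UMIs of the 4 genes they held. Hivep3 in WT stood at 14.4 CPM in resting cells, 57.9 in cells just outside the threshold with 2 UMIs, 133 at 3 to 5 and 351 at 6 or more, and in CKO at 15.6, 76, 97.3 and 206. S1pr1 ran the other way, at 344, 271, 199 and 45.9 CPM in WT and 404, 314, 231 and 95.2 in CKO. Nfkbid stood at 18.2, 40.2, 82.6 and 232 CPM in WT and 17.8, 66.3, 110 and 289 in CKO. Cells with 6 or more UMIs were also deeper, with a median of 9386 UMIs in WT and 7318.5 in CKO against 6328 and 5686 in resting cells.

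**Figure D2:**
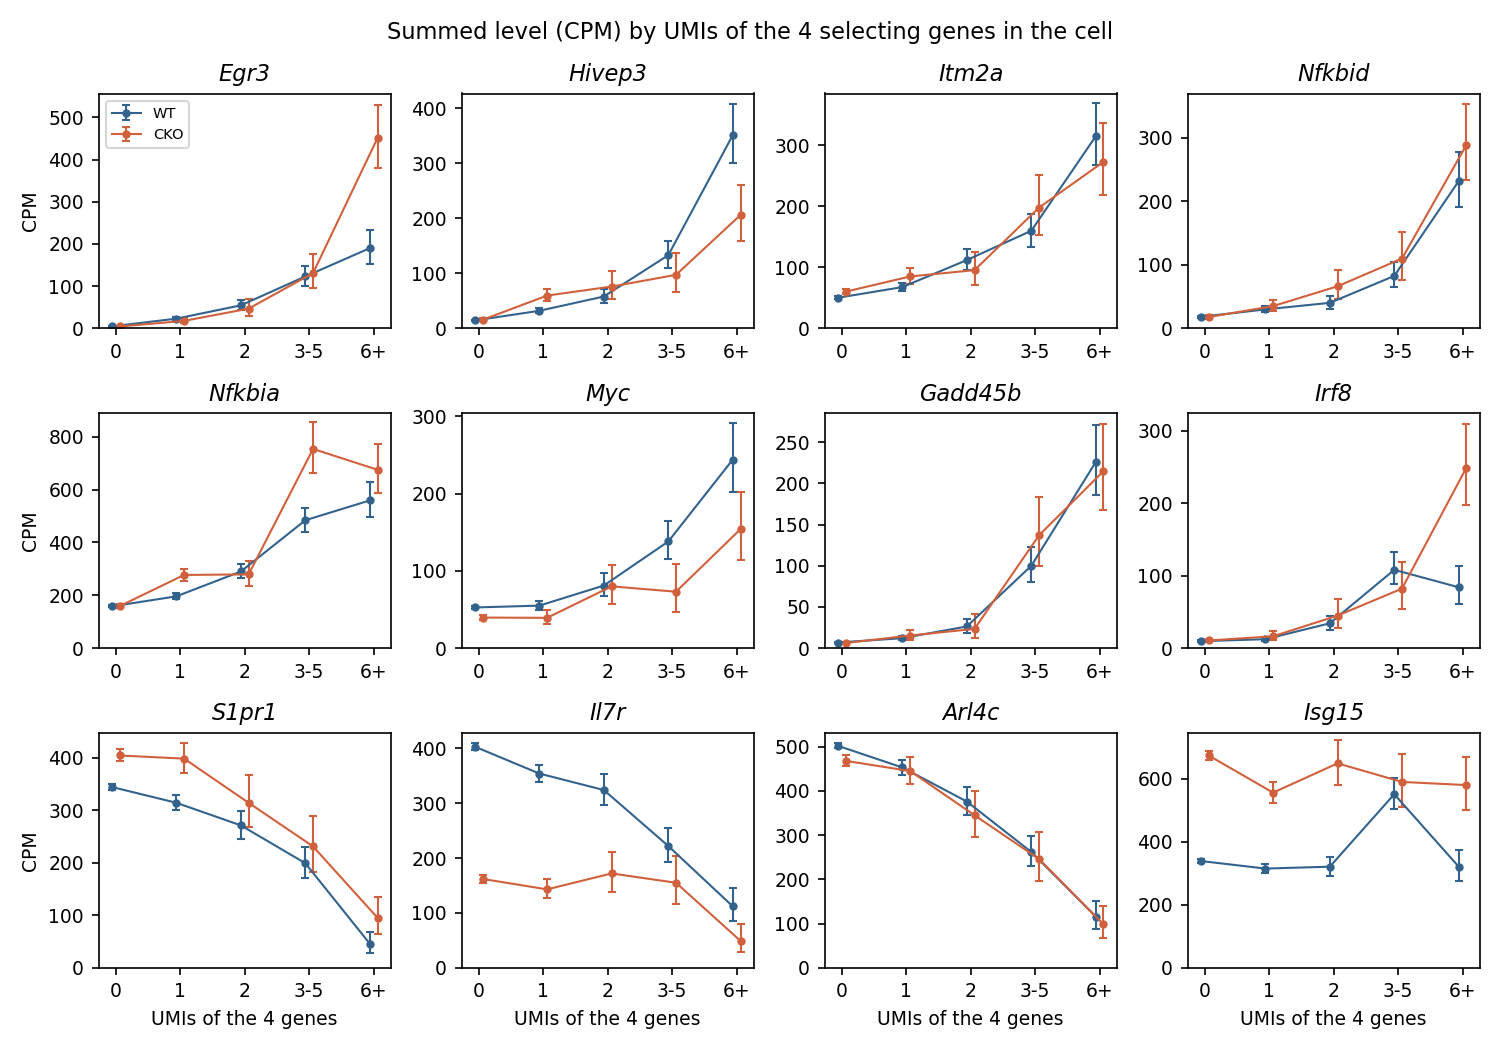
Summed level (CPM, linear axes from 0) of 12 genes outside the rule in eligible T cells by the number of UMIs of the 4 selecting genes in the cell, for WT (blue) and CKO (red), with exact Poisson 95% intervals. Egr3, Hivep3, Itm2a, Nfkbid and Gadd45b lie higher in cells with more of these UMIs, while S1pr1 and Arl4c lie lower, and Il7r and Isg15 are set apart between the libraries already at 0 UMIs (403 and 162 CPM for Il7r, 339 and 674 for Isg15).

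The comparison between genotypes was not used by the rule. Stimulated cells of the CKO library held more Egr3, Cd40lg and Socs1 than those of the WT library, and less Myc, Il7r, Izumo1r and Dapl1. Socs1, Myc, Il7r, Izumo1r and Dapl1 differed the same way in resting cells, as given below. Among stimulated cells with Cd4 and no Cd8b1 UMI, Cd40lg, Socs1 and Myc were not called. Of 3240 genes at 50 CPM or more in a library, 195 (6.02%) were higher and 76 (2.35%) lower in CKO stimulated cells. That split of 72% higher became 58% (200 higher, 145 lower) when totals left out ribosomal protein and mitochondrial genes, so the size of the excess depends on the scaling. Without the myeloid-rich cells 209 of 3217 genes at 50 CPM or more were higher and 71 lower. At a mean of 5 CPM, the floor used for lists, 4.74% of 8840 genes were higher and 2.29% lower. The list counts of all stimulated cells below stand beside these shares. In resting T cells of the same libraries the shares were 2.13% and 1.83% of 8545 genes, from far more cells.

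Receptor-induced nuclear factors were 4 of 16 higher and 1 lower in CKO, with a median log2 ratio of 0.38 beside 0.08 over all genes. The median was 0.02 with every cell weighted equally and -0.10 without the myeloid-rich cells. Egr3 was higher, at 147 CPM from 59 WT cells and 290 CPM from 40 CKO cells, a ratio of 1.98 [1.62, 2.42]. In resting cells its ratio was 0.963 [0.701, 1.3]. Batf, an AP-1 partner of IRF4, had a ratio of 1.52 [1.04, 2.22], and Tox 1.79 [1.24, 2.58]. Irf8 had 1.66 [1.28, 2.15], with 46.3% of its CKO UMIs in 1 cell, and 0.862 without the myeloid-rich cells. Myc was the lower member, at 0.642 [0.488, 0.836], and it was also lower in resting CKO cells, at 0.75 [0.678, 0.829]. Among stimulated cells with Cd4 and no Cd8b1 UMI, 2 of 16 factors were higher, Egr3 and Irf8, and 0 lower. Batf, Tox and Myc were thus not called there.

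Of 16 NF-kB genes 0 were called between genotypes, and 1, Nfkbiz, was higher without the myeloid-rich cells. Nfkbia had a ratio of 1.4 [1.24, 1.57], with levels of 511 and 715 CPM from 133 WT and 82 CKO cells, and Nfkbid 1.46 [1.16, 1.84]. In resting cells their ratios were 1 [0.954, 1.06] and 0.982 [0.84, 1.14]. Among 16 AP-1 and immediate early genes Fos (1.52 [1.14, 2.02]) and Zfp36l1, which encodes an mRNA decay factor (1.64 [1.45, 1.86]), were higher and Dusp1, a MAP kinase phosphatase (0.65 [0.449, 0.924]), was lower; without the myeloid-rich cells Zfp36l1 and Dusp1 were the calls among 14. Fos was lower in resting CKO cells, at 0.697 [0.639, 0.76].

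Of 18 co-stimulatory genes 1, Cd40lg, was higher and 0 lower in all stimulated cells, beside 4.74% and 2.29% of all genes. Without the myeloid-rich cells 1 was higher and 1 lower (Cd40lg and Slamf6). In the Cd4 subset 0 of 17 were higher and 2, Cd28 and Slamf6, lower, beside 4.59% and 1.88% of all genes. Cd40lg, which encodes the ligand through which helper T cells act on B cells and lies on the X chromosome, stood at 43.7 CPM from 42 WT cells and 96.3 CPM from 39 CKO cells, a ratio of 2.2 [1.53, 3.19]. In the subset with Cd4 and no Cd8b1 UMI, where CD40 ligand is mainly made, the ratio was 1.56 [0.965, 2.52], which was not called. The inhibitory list had 0 of 16 higher and 3 lower. Ctla4, the competitor of CD28 for its ligands, had 36 UMIs in 17 WT cells and 5 UMIs in 4 CKO cells, a ratio of 0.297 [0.0908, 0.758]. Izumo1r, which encodes folate receptor 4 and marks regulatory and anergic cells, had levels of 132 and 74.9 CPM from 62 and 25 cells, a ratio of 0.569 [0.406, 0.783], and 0.653 [0.597, 0.714] in resting cells. Cd160 had 0.416 [0.222, 0.729].

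Inducible feedback regulators went both ways, with 4 of 19 higher and 3 lower and a median of 0.02. Without the myeloid-rich cells 3 of 18 were higher and 3 lower. In the Cd4 subset 0 of 19 were higher and 1 lower, so Socs1 and Dusp5 were not called there. Socs1, which restrains cytokine signalling, had 50 UMIs in 38 WT cells and 47 UMIs in 35 CKO cells, a ratio of 2.01 [1.32, 3.05], and 1.6 [1.48, 1.73] in resting cells. Dusp5, an ERK phosphatase, had 1.7 [1.3, 2.2], and 1.49 [1.34, 1.65] in resting cells. Ubash3b, which encodes the phosphatase Sts-1, had 0.484 [0.268, 0.827]. Rgs1 had 1.67 [1.27, 2.17] with 55.3% of its CKO UMIs in 1 cell, and 0.396 [0.24, 0.631] in the Cd4 subset.

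Among 9 measured cytokine genes 3 were higher in CKO: Tnf, Ccl3 and Ccl4. Tnf had a ratio of 1.98 [1.12, 3.51] from 18 and 19 cells, and 1.82 [1.38, 2.39] in resting cells. Ccl3 and Ccl4 rested on single cells: 122 of 129 Ccl3 UMIs in CKO and 96.5% of its Ccl4 UMIs lay in 1 cell, and without the highest cell of each library Ccl4 had a ratio of 0.178. Of 16 cytokine receptors Ifngr2 (1.72 [1.08, 2.71]) was higher and Ifngr1 (0.592 [0.356, 0.948]) and Il7r lower; without the myeloid-rich cells 1 was higher and 1 lower. Il7r, the receptor chain for the survival cytokine IL-7, stood at 183 CPM in WT and 102 in CKO stimulated cells, from 64 and 24 cells, a ratio of 0.561 [0.422, 0.737]. Resting cells held 403 and 162 CPM, a ratio of 0.402 [0.384, 0.421].

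Among interferon-stimulated genes, 20 of 52 were higher and 0 lower in resting CKO cells, with a median log2 ratio of 0.53 beside 0.06 for all genes. In stimulated cells 5 of 53 were higher and 1 lower, with a median of 0.19 beside 0.08; without the myeloid-rich cells 6 of 52 were higher and 2 lower with a median of 0.34, and the median was 0.46 at 4 or more UMIs of the selecting genes. Isg15, a ubiquitin-like antiviral protein, stood at 339 and 674 CPM in resting cells and 469 and 585 in stimulated cells, so its ratio was 1.99 [1.93, 2.04] in the former and 1.25 [1.1, 1.42] in the latter. Bst2, which encodes the virus-tethering protein tetherin, had 1.52 [1.32, 1.74] in stimulated and 1.66 [1.61, 1.71] in resting cells. One stimulated cell held 16.5% of its CKO UMIs, and without the myeloid-rich cells Bst2 was not called in stimulated cells. Slfn5 had 1.55 [1.29, 1.86] and 2 [1.94, 2.06], and Ifi208 was the lower member at 0.399 [0.256, 0.6]. Slfn and Ifi200 genes belong to families of similar copies, so single values among them are less certain. The difference between the classes was not tested.

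**Figure D3:**
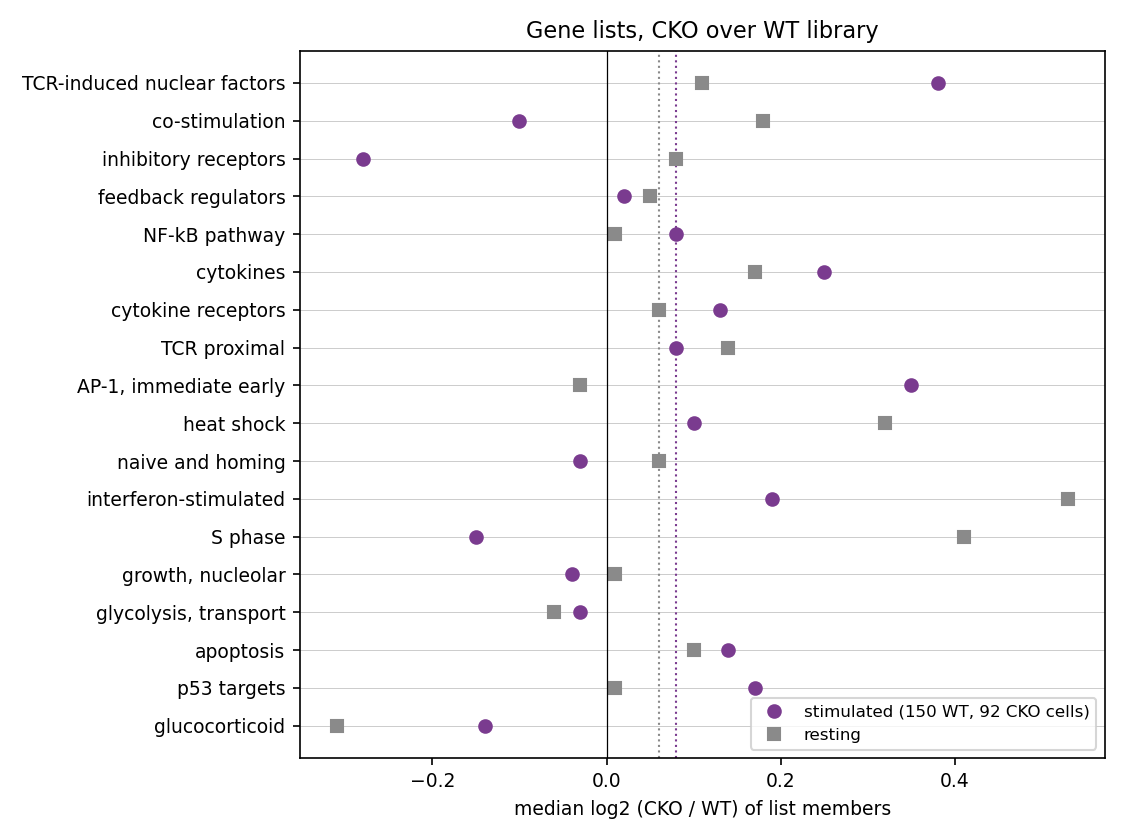
Median log2 ratio of CKO over WT for the measured members (mean of 5 CPM or more) of 18 gene lists in stimulated (purple circles) and resting (grey squares) T cells, with dotted lines at the medians of all genes, 0.08 and 0.06. The interferon list lies at 0.19 in stimulated and 0.53 in resting cells, and the nuclear factor list at 0.38 and 0.11; no error is drawn because each genotype had 1 library.

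Calls among genes of DNA replication, mitosis and the p53 response rested on few cells. Of 21 S phase genes 0 were higher and 1, Pclaf, was lower, at 0.397 [0.161, 0.855] from 5 WT and 2 CKO cells. Of 8 measured genes of G2 and mitosis 3 were lower, Birc5, Tpx2 and Nusap1, with most of their UMIs in 1 WT cell each (81.5%, 78.9% and 88.2%); Birc5 and Nusap1 were lower without the myeloid-rich cells. Of 13 p53 genes 4 were higher, but without the myeloid-rich cells 1 of 10 was higher and 1 lower. Cdkn1a, the cell cycle inhibitor p21, was found in 4 cells of each library with 76.2% of the CKO UMIs in 1 cell, while Mdm2, a p53 target found in 40 WT and 26 CKO cells, had 1.45 [0.91, 2.29]. Trp53 itself had 0.935 [0.724, 1.2].

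Of 20 genes of the receptor itself and its proximal signalling 0 were called between genotypes, beside 4.74% and 2.29% of all genes, and the median was 0.08. Without the myeloid-rich cells 1 of the 20, Cd6, was higher, and in the Cd4 subset 1 of 20, Trbc1. The kinase genes Lck and Zap70 had ratios of 1.16 [1.01, 1.34] and 0.893 [0.656, 1.2], and Lat, the adaptor they act through, 1.13 [0.973, 1.32]. Of 8 measured genes of thymocytes and recent emigrants 3 were higher, Sox4, Ccr9 and Tox, and Cd8b1 was lower. Sox4, a factor of immature lymphocytes, stood at 63.7 CPM from 30 WT cells and 151 CPM from 37 CKO cells, a ratio of 2.37 [1.77, 3.2], and resting cells had the same ratio, 2.37 [2.13, 2.64]. Ccr9, a homing receptor for the gut and thymus, had 2.07 [1.44, 2.97] in stimulated and 0.971 [0.906, 1.04] in resting cells. Of 23 effector and memory genes 3 were higher and 6 lower, and without the myeloid-rich cells 2 and 7 of 22. Eomes, a factor of memory CD8 cells, had 0.538 [0.345, 0.815] in stimulated and 0.343 [0.278, 0.42] in resting cells.

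Ranked by ratio over the genes at 50 CPM or more, the 10 highest in CKO included Ccl3, Arhgap20, Siglech, Tcf4, Trib1, Ly6c1, Mxd1, Lpp and Cyp51, and the 10 lowest were Cxcl10, Ly6c2, Plac8, Dapl1, Jaml, Lrrc59, Ifi208, Cd160, S100a4 and Ms4a6c. Arhgap20, which encodes a GTPase-activating protein, had 19 UMIs in 10 WT cells and 48 UMIs in 19 CKO cells, a ratio of 5.39 [3.11, 9.72], and 4.38 [2.94, 6.56] in resting cells. Trib1, a pseudokinase that binds the COP1 ligase, had 28 UMIs in 18 WT cells and 37 UMIs in 21 CKO cells, a ratio of 2.82 [1.68, 4.79]. Mxd1, an antagonist of MYC, had 2.59 [1.79, 3.76] and 2.02 without the highest cell of each library. Cyp51, an enzyme of cholesterol synthesis, had 2.54 [1.6, 4.04]. Siglech, a marker of plasmacytoid dendritic cells, came from 1 cell in each library.

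Among the lowest, Ifi208 was found in 63 WT cells, Dapl1 in 58 and Lrrc59 in 41. Dapl1, a gene of naive CD8 T cells, had levels of 212 and 70.3 CPM from 58 and 16 cells, a ratio of 0.332 [0.238, 0.454], beside 0.406 [0.387, 0.425] in resting cells. Ly6c2 had 0.175 [0.123, 0.243] and its neighbour Ly6c1 2.76 [1.86, 4.11]; they are near-identical copies, so reads may have been split between them. Cxcl10, a chemokine induced by interferon, had 191 UMIs in WT, 124 of them in 1 cell, and 2 UMIs in CKO. Plac8 had 46.1% of its WT UMIs in 1 cell and a ratio of 0.229 [0.17, 0.304]. Without the myeloid-rich cells Plac8 had 0.325 [0.207, 0.493], Cxcl10 0.117 [0.0137, 0.454] and S100a4 0.111 [0.013, 0.429]. Ms4a6c was then at 0.842 [0.297, 2.11] and Tcf4 at 1.62 [0.238, 9.6], neither of them called. The share of Cd8b1 cells among stimulated cells, given next, was also lower in CKO, and its part in these ratios was not tested.

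**Figure D4:**
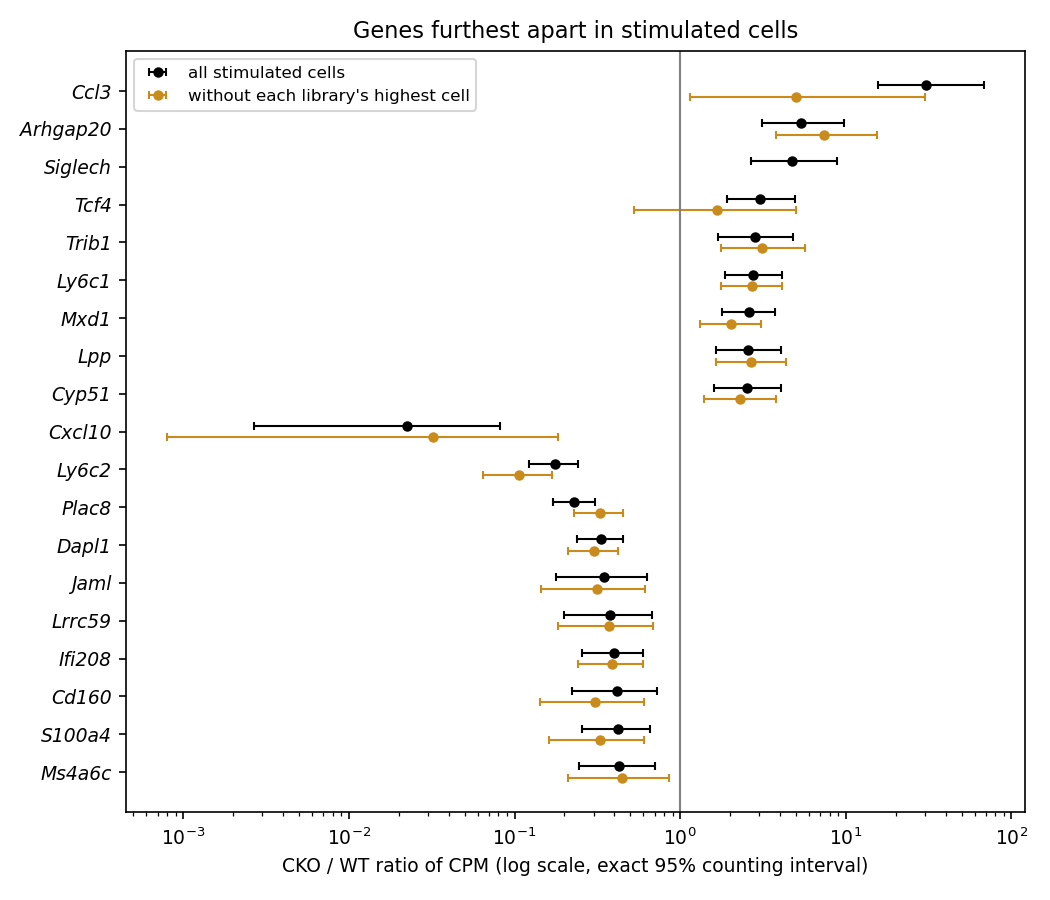
CKO over WT ratio of CPM (log axis) for genes among the 10 highest and for the 10 lowest in stimulated T cells, with exact conditional binomial 95% intervals, over all stimulated cells (black) and without the cell of each library with most UMIs of the gene (orange). Ccl3 moves from 30.6 to 4.99 and Tcf4 from 3.04 to 1.66, while Arhgap20, Trib1, Dapl1 and Cd160 stay on their side with intervals that leave out 1; Siglech has no orange point because it came from 1 cell in each library.

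The co-receptor makeup differed between the libraries. Of stimulated cells with UMIs of Cd4 or Cd8b1 but not both, Cd8b1 cells were 40 of 112 in WT (35.7% [26.9, 45.3]) and 12 of 64 in CKO (18.8% [10.1, 30.5]). With every cell thinned to 4000 UMIs they were 30.4% [17.7, 45.8] and 22.6% [9.59, 41.1], and at 4 or more UMIs of the selecting genes 31.9% [21.4, 44] and 23.3% [11.8, 38.6], so the gap was smaller there and the intervals overlapped in all 3 settings. The thinned setting could again let in cells that were left out at full depth. Among resting cells the shares were 54.2% [52.8, 55.6] and 27.3% [25, 29.7], so the smaller Cd8b1 share of CKO was present in resting cells too. Within subsets, stimulated cells were 2.71% [2.13, 3.41] of WT and 4.07% [3.05, 5.3] of CKO Cd4 cells, and 1.38% [0.99, 1.88] and 2.72% [1.41, 4.7] of Cd8b1 cells. Cells with both co-receptors had shares of 2.48% and 2.53%, and cells with neither 2.19% and 3.95%. The CKO share was above the WT share in each subset, with overlapping intervals in all 4 of the subsets.

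In Cd4 stimulated cells, 72 in WT and 52 in CKO, 225 of 3347 genes at 50 CPM or more (6.72%) were higher in CKO and 94 (2.81%) lower; at a mean of 5 CPM the shares of 8742 genes were 4.59% and 1.88%. The split was 238 higher and 143 lower without ribosomal protein and mitochondrial genes in the totals. Interferon-stimulated genes were 18 of 52 higher and 1 lower, with a median log2 ratio of 0.39 beside 0.10 for all genes. The resting Cd4 median was 0.48 beside 0.04 for all genes. Bst2 had 1.96 [1.59, 2.41], Rsad2, which encodes viperin, 2.24 [1.31, 3.91], and Ifitm3 2.47 [1.47, 4.21]. These values include the myeloid-rich cells, without which Bst2 was not called among all stimulated cells. Egr3 had 1.89 [1.43, 2.51] and was, with Irf8, the nuclear factor called, again with the myeloid-rich cells included. Izumo1r had 0.411 [0.266, 0.618] and Ctla4 0.172 [0.0334, 0.556]. The 5 lowest named genes were Eomes (0.0782), Apol7c (0.113), Tbc1d4 (0.242), Bag6 (0.267) and Ubxn6 (0.288). Apol7c came from 2 WT cells and 1 CKO cell and Eomes from 8 and 2, and 1 cell held 56.2% of the CKO UMIs of Tbc1d4. Bag6 came from 26 and 5 cells and Ubxn6 from 28 and 7. The 5 highest, Siglech, Ccnd1, Gzma, Runx2 and Tcf4, had 77.3% to 100% of their CKO UMIs in 1 cell. The 12 Cd8b1 cells of CKO were too few for such counts, and only levels are given for them.

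Cd8b1 and Cd4 stimulated cells of the WT library, which share that library, differed in what they carried. Of 8670 genes 7.8% were higher and 6.79% lower in Cd8b1 cells. Growth genes were 13 of 18 higher and 0 lower (median log2 ratio 0.80 beside 0.02 for all genes), S phase genes 10 of 23 and 0, genes of G2 and mitosis 0 of 11 and 7, immediate early genes 0 of 16 and 8, naive and homing genes 0 of 19 and 12, and NF-kB genes 0 of 16 and 5. Among resting WT cells the growth and S phase medians were 0.22 and 0.18, beside -0.04 for all genes. Ncl stood at 1750 CPM in Cd4 and 3160 in Cd8b1 WT cells, and at 1680 and 2890 in CKO. Nfkbia stood at 629 and 390 CPM in WT and 846 and 317 in CKO. Nr4a1 stood at 319 and 119 CPM in WT and 537 and 327 in CKO, and Hivep3 at 135 and 284 in WT and 136 and 259 in CKO. Xcl1 stood higher in Cd8b1 cells, at 26 and 1120 CPM in WT and 80.7 and 1250 in CKO, while Cd40lg stood at 66 CPM in Cd4 and 6.6 in Cd8b1 WT cells and at 103 CPM and 0 UMIs in CKO. Median depth was 6895.5 UMIs in Cd4 and 9522 in Cd8b1 WT cells.

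The stimulated cells with a Tnfrsf9 UMI, 67 of 150 in WT and 41 of 92 in CKO, held more growth gene transcripts and fewer early and homing gene transcripts than those without. Tnfrsf9 is a gene of the rule, and cells without it reached 3 UMIs through Nr4a1, Nr4a3 and Egr2, so this split is descriptive. Cells with Tnfrsf9 were also deeper, with medians of 9548 against 6762 UMIs in WT and 7162 against 6003 in CKO. The split was not made within co-receptor classes. Growth, S phase, immediate early and homing genes lay the same way between Cd8b1 and Cd4 cells of WT. How far the Tnfrsf9 and co-receptor splits overlap was not tested. In WT 13.8% of 8750 genes were higher and 11% lower in cells with Tnfrsf9, and in CKO 7.81% and 8.38% of 8691. Growth genes were 16 of 18 higher and 1 lower in WT and 11 higher and 1 lower in CKO, with median log2 ratios of 1.47 and 1.33. Heat shock and S phase genes lay on the same side, at medians of 1.39 and 0.83 and of 1.17 and 0.86. Genes of G2 and mitosis lay on the other side, with 7 of 10 lower in WT (-2.37) and 4 of 4 in CKO (-1.85), though 3 cells of each library held 64.5% and 64.6% of that list's UMIs. Immediate early genes were 11 of 16 lower in WT and 12 in CKO (-0.97 and -1.29), naive and homing genes 15 and 13 of 19 (-1.10 and -0.85), and interferon-stimulated genes 31 and 20 of 53 (-0.77 and -0.66).

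The early genes Egr1 and Egr3 lay with the cells lacking Tnfrsf9. Egr1 stood at 548 CPM without and 84.6 with Tnfrsf9 in WT, and at 728 and 79.7 in CKO, and Egr3 at 277 and 32.2 in WT and 524 and 55.2 in CKO. Nfkbid stood at 228 and 55.1 CPM in WT and 317 and 79.7 in CKO, and Cd69 at 796 and 316 and at 969 and 205. Hivep3 ran the other way, at 52.1 CPM without and 351 with Tnfrsf9 in WT and 73.1 and 230 in CKO, as did Itm2a, at 95 and 321 and at 116 and 355. Hspd1, the mitochondrial chaperonin, stood at 138 and 885 CPM in WT and 204 and 788 in CKO, and Mcm6, a subunit of the replicative helicase, at 23 and 88.7 and at 15.2 and 95. Il7r stood at 329 CPM without and 53.7 with Tnfrsf9 in WT, and at 158 and 46 in CKO. The NF-kB list was 3 of 16 higher and 5 lower in WT and 0 higher and 9 lower in CKO. Bcl2a1b was higher with Tnfrsf9 in WT (152 and 236 CPM) and lower in CKO (183 and 95); whether the libraries differ in it was not tested.

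**Figure D5:**
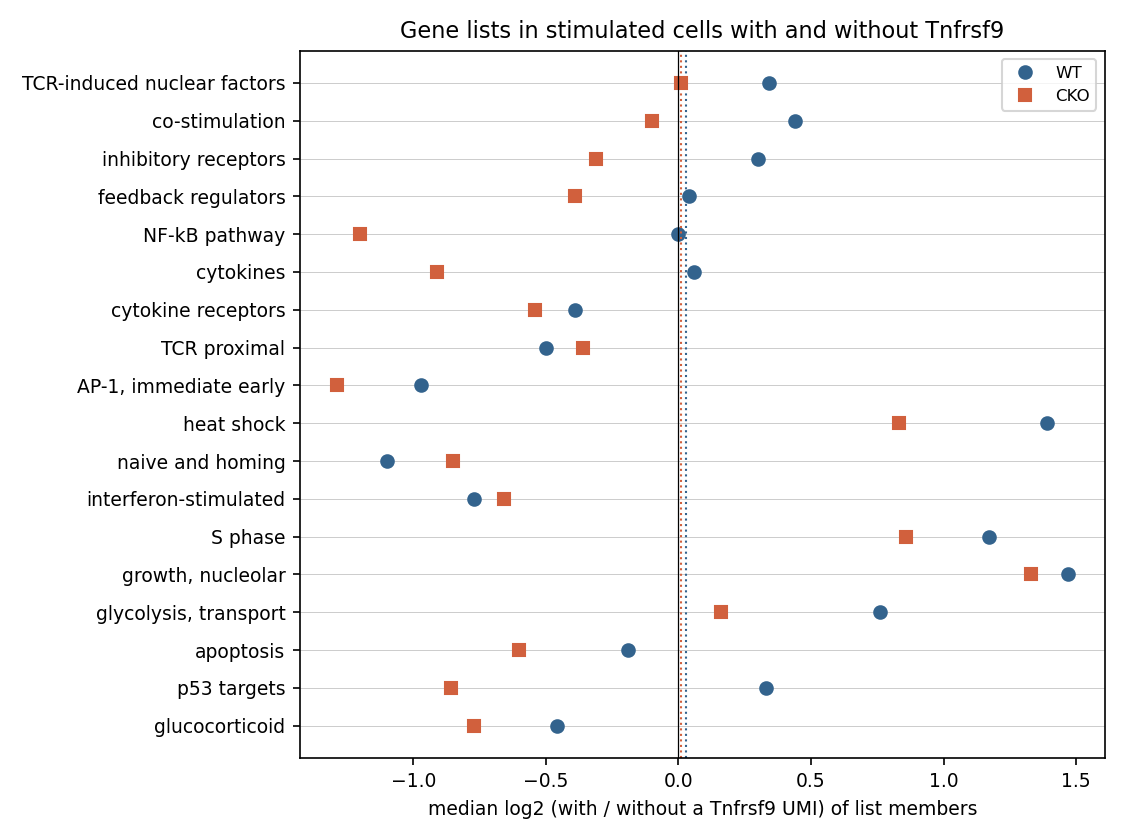
Median log2 ratio of stimulated cells with over without a Tnfrsf9 UMI for the measured members of 18 gene lists, in WT (blue circles) and CKO (red squares), with dotted lines at the medians of all genes. Growth, heat shock and S phase lists lie between 0.83 and 1.47, and immediate early, naive and interferon lists between -1.29 and -0.66, in both libraries; the split uses a gene of the selection rule.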

How the data were processed

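The 2 libraries of lymph node immune cells were analysed, 1 WT and 1 CKO. The deposited files hold raw UMI counts per gene and cell barcode, made by the authors with Cell Ranger: version 5.0.0 and Seurat 4.0.3 per the submitters' processing notes, 6.0.2 per the file headers, on mm10. UMIs of features with the same symbol were summed (32285 features). Shallow or odd barcodes were filtered by the selection rule itself. UMIs were summed per library and class and divided by the class total. No test was run, since cells are not replicates. Precision is that of the UMI number: 1397171 UMIs in WT and 654431 in CKO stimulated cells. Genes were read against 28 lists. Named genes are the 10 highest and 10 lowest CKO over WT ratios (5 and 5 in the Cd4 subset) at 50 CPM or more whose interval left out 1, without receptor segments, mitochondrial, sex-linked and predicted genes, selecting genes and genes 10 times as high in B cells; the 10 highest and lowest against resting cells; and members of the lists, some taken for their roles; some of these genes are not reported here. The cells and lists were chosen with earlier results of these data known. Doublets were scored with Scrublet in Scanpy 1.11.5 at 0.8% per 1000 barcodes; 7 WT and 2 CKO stimulated cells were marked and kept in the main values. Counting was tested on simulated data. Alternatives changed thresholds, depth, weights, floors and totals. Python 3.11.15, NumPy 2.4.6, SciPy 1.17.1 and pandas 2.3.3 were used. The few Cd8b1 cells of CKO (under 30) were given levels only.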

Additional observations from a re-analysis of the deposited data

Results flagged for a closer look

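In 11 genes the CKO over WT ratio lay on one side of 1 in stimulated cells and on the other in resting cells, each with an interval that left out 1. The difference between the classes was not tested, and each genotype had 1 library. Chemokines and calcium-binding genes rested on few cells. Ccl4 had a ratio of 2.42 in stimulated and 0.748 in resting cells, and 0.178 without the highest cell of each library (11 WT and 3 CKO cells). Ccl5, an effector chemokine, had 0.753 and 1.33, from 17 and 10 cells. Cxcl10 had 0.0224 and 1.86, from 14 and 2 cells. S100a4 had 0.42 and 2.14 from 7 and 4 cells, and S100a6 had 0.499 and 3.57 from 9 and 5 cells. Ms4a6c had 0.427 and 1.48, from 19 and 9 cells, but 0.842 [0.297, 2.11] without the myeloid-rich cells and 0.803 and 0.864 at 2 or 4 and more UMIs of the selecting genes, where it was not called. S100a4 had 1.02 and 0.937 at those thresholds, likewise not called.

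Early and quiescence genes rested on more cells. Fos had 1.52 and 0.697, from 51 WT and 28 CKO cells, and it was not called in stimulated cells without the myeloid-rich cells. Junb had 1.27 and 0.965 from 138 and 84 cells, and Klf2 had 1.24 and 0.934 from 105 and 72 cells. Klf6 had 1.35 [1.09, 1.67] and 0.913, with 1.23 [0.971, 1.55] without the highest cell of each library. Ifi209, an interferon-inducible gene of a family of similar copies, had 0.724 and 1.36, from 95 and 40 cells. In stimulated cells Junb, Klf2, Klf6 and Ifi209, and Ccl5 above, fell short of the 1.5-fold difference needed for a call.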

How the results depend on the processing

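The difference in the share of stimulated cells, 1.56 percentage points, was 0.623 with every cell thinned to 2000 UMIs and 0.612 without Nr4a1 in the sum, and the other 9 alternatives gave 0.89 to 2.36. Genes apart in all stimulated cells numbered 271, and 476 at a floor of 20 CPM, 663 with no floor and 147 at 2 or more UMIs of the selecting genes; in Cd4 cells they numbered 319, and 491 and 565 at those floors. The gap in the Cd8b1 share, -17 percentage points, was -7.85 with cells thinned to 4000 UMIs and -8.69 at 4 or more UMIs. In the thinned settings cells left out at full depth could enter, so these values are not of the same cells. The interferon median, 0.19, was 0.27 with cells weighted equally, 0.39 and 0.46 at 2 or 4 and more UMIs, 0.27 with Cd4 and Cd8b1 cells at equal weights and 0.34 without myeloid-rich cells. The nuclear factor median, 0.38, was 0.02 with cells weighted equally, 0.26 at 4 or more UMIs and -0.10 without myeloid-rich cells. The naive and homing median, -0.03, was 0.06 with cells weighted equally, 0.12 at 2 or more UMIs, -0.17 at equal co-receptor weights and 0.08 without the highest Scrublet scores. Over 44 named genes and 9 alternatives, 393 ratios could be computed, of which 347 stayed within the main interval, 39 moved on the same side of 1 and 7 crossed 1. These were Ccl3 (0) and Ccl4 (0.0208) at equal co-receptor weights, Ccl4 without its highest cells (0.178), S100a4 at 2 or more UMIs (1.02), Xcl1 with cells weighted equally (1.02) and at equal co-receptor weights (1.22), and Irf8 without myeloid-rich cells (0.862). The causes were not tested. Leaving out myeloid-rich cells or each gene's highest cell, and ignoring Cd79a and Ms4a1, were chosen after seeing the data. No paired analysis was possible because each genotype had 1 library.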
